A study of Mus musculus with 3 samples.

Results

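Endothelial cells line blood and lymphatic vessels, and those examined here are 226 barcodes of the Day 7 library and 158 barcodes of the Day 14 library from healing mouse skin wounds profiled by single-cell RNA-seq. A barcode tags the mRNA of 1 droplet, and a unique molecular identifier (UMI) stands for 1 captured mRNA molecule. A barcode was chosen when it held at least 1000 UMIs with at most 10% of them mitochondrial and when at least 3 of the 7 endothelial genes Pecam1, Cdh5, Flt1, Kdr, Egfl7, Cldn5 and Emcn were detected with a sum of at least 6 UMIs. Its fibroblast transcripts (Dcn and Col1a2) also had to be under 1% of its UMIs and its macrophage transcripts (Lyz2, C1qa and C1qb) under 0.8%. The 384 endothelial members found in this way came from 32726 barcodes of the 2 libraries within the limits on UMIs and mitochondrial UMIs, and from 44693 barcodes in all 3 libraries of the series. The members were thus chosen by their own measured levels of these genes, which are given as a description only.

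Full-thickness punch wounds were made in the dorsal skin of adult male C57BL/6J mice, for which the sources name no transgene, mutant allele or drug, and wound tissue was taken 3, 7 or 14 days later. Tissue pooled from several wounds was dissociated with enzymes, and the unsorted cells were captured on the Chromium platform as 1 library per day. With 1 pooled library per day, no difference between Day 7 and Day 14 has a replicate check, and each ratio compares 2 libraries rather than 2 stages of healing. The whole wound was dissociated, so that vessels of granulation tissue and of adjoining dermis or fascia cannot be told apart.

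New vessels grow into granulation tissue by sprouting: tip cells at the front answer vascular endothelial growth factor (VEGF) and express Esm1, Apln, Angpt2 and Dll4, stalk cells divide behind them, and a basement membrane of type IV collagen, laminins and perlecan is laid down around the tube. As a wound matures, many of these vessels regress and the remainder take on arterial, capillary or venous character. Lymphatic vessels, which drain fluid and carry leukocytes, depend on the transcription factor Prox1.

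Members made up 1.19% of the barcodes within limits on Day 7 (exact 95% interval 1.04 to 1.36) and 1.14% on Day 14 (0.974 to 1.34). The log2 ratio of these shares, Day 14 over Day 7, was -0.06 with an interval of -0.36 to 0.24, so that no difference in share was detectable at this depth. All intervals in the text are 95% intervals and cover counting error only. Those of gene ratios count UMIs summed over members and leave out differences between members. The members summed to 1864443 UMIs on Day 7 and 1193510 UMIs on Day 14. A Day 7 member held a median of 7057 UMIs (range 1041 to 39667) and a Day 14 member 5399.5 UMIs (1118 to 68498), with medians of 2506.5 and 2008 detected genes. The median mitochondrial share was 3.66% on Day 7 and 3.15% on Day 14, and the ribosomal RNA-overlapping transcript Gm42418 took 13.5% and 7.36% of the members' UMIs. The Day 7 and Day 14 libraries shared 111 barcode sequences, of which 2 belonged to a member of 1 library and none to members of both.

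The sum of the 7 rule genes had a median of 28.5 UMIs per member on Day 7 and 22.5 on Day 14, with ranges of 6 to 188 and 6 to 232. At the edge of the rule, 6 members of Day 7 and 2 of Day 14 held exactly 6 such UMIs, and 3 and 6 barcodes met every other limit with 5. The fibroblast limit alone kept out 20 barcodes on Day 7 and 25 on Day 14, whose median depths were 16449 and 14841 UMIs. Inside that limit the highest share of Dcn and Col1a2 was 0.740% on Day 7 and 0.534% on Day 14, and the lowest outside was 1.29% and 1.08%. The macrophage limit alone kept out 5 barcodes on Day 7 and 0 on Day 14. A doublet caller marked 18 of 226 and 2 of 158 members, which were kept.

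The endothelial markers were used by the rule, so that their detection describes the members and does not test the label. Pecam1, the adhesion molecule CD31, was found in 222 of 226 members on Day 7 and 153 of 158 on Day 14, and Cdh5, which encodes VE-cadherin, in 218 and 152. The VEGF receptor gene Kdr was found in 188 and 123 members, Flt1 in 155 and 111, the sialomucin gene Emcn in 190 and 122, and the tight junction gene Cldn5 in 125 and 80. Outside the rule, the 15 genes with the highest ratio to all other barcodes within limits, taken as the lower of the 2 days, were Sox17, Podxl, Mmrn1, Flt4, Robo4, Gpihbp1, Myct1, Adgrl4, C1qtnf9, Fam167b, Grrp1, Mmrn2, Aplnr, Ushbp1 and C130074G19Rik. Sox17, a transcription factor of arterial endothelium, reached 116 CPM (UMIs of the gene per 1000000 UMIs) in members and 0.234 CPM in the other barcodes on Day 7, and 194 and 0.396 CPM on Day 14. These genes follow from the choice of barcodes and are no test of it.

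All 25 genes of a list of general endothelial identity, none of which was used by the rule, passed a limit of 50 CPM in 1 of the libraries and 30 UMIs over both, and this limit was used for every count of genes. The list summed to 8648 CPM on Day 7 and 8724 CPM on Day 14. Its share of a member's UMIs had a median of 0.892% (quartiles 0.605 to 1.16) on Day 7 and 0.913% (0.598 to 1.19) on Day 14. Fibroblast-like barcodes (Dcn and Col1a2 at least 1% of UMIs, the macrophage genes under 0.8%, at most 1 rule gene) had medians of 0.0572% and 0.0811%. Of the 25 genes, 24 lay within 2-fold of each other on the 2 days and 1 was higher on Day 14, the water channel gene Aqp1, with 277 CPM on Day 7 and 753 CPM on Day 14 (log2 ratio 1.44, interval 1.29 to 1.60). The endothelial transcription factors Erg and Fli1 had log2 ratios, Day 14 over Day 7, of -0.02 (-0.36 to 0.31) and -0.04 (-0.28 to 0.20). The largest ratio in the other direction was that of Cd93, a C-type lectin of sprouting endothelium, at -0.78 (-0.91 to -0.66).

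Across all genes, 3564 passed the limit in members. Of these, 234 (6.57%) were at least 2-fold higher on Day 14 and 223 (6.26%) at least 2-fold higher on Day 7, with a median log2 ratio of -0.04 and quartiles of -0.42 and 0.35. The balance of the calls depended on the totals: with the 50 most abundant genes left out of them, 252 genes were higher and 373 lower on Day 14, and the median moved by -0.11. With Gm42418, mitochondrial and ribosomal protein genes left out, an alternative chosen after seeing the data, 230 were higher and 403 lower, and the median moved by -0.14. These shares, 6.57% and 6.26%, are the background for every list counted over all members. Such a list is described by its count and its median beside them, with no test. They are not the background for counts in other settings. Without members that held a Prox1 UMI, and with the limit applied again, 192 genes were higher and 199 lower on Day 14. With each member thinned to 1000 UMIs, 169 were higher and 165 lower. For genes passed over all members but counted in Prox1-negative ones, no share over all genes was computed. Lists could share genes, so that their counts are not separate results. Aplnr counted among sprouting and venous genes, Angpt2 among sprouting and VEGF genes, and Ackr1 among venous and leukocyte adhesion genes. The plot of gene levels in the 2 libraries shows lists among all genes. Genes of sprouting, basement membrane and cell division lay mostly below the diagonal, on the Day 7 side, and capillary lipid handling, leukocyte adhesion and lymphatic genes mostly above it.

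**Figure D1:**
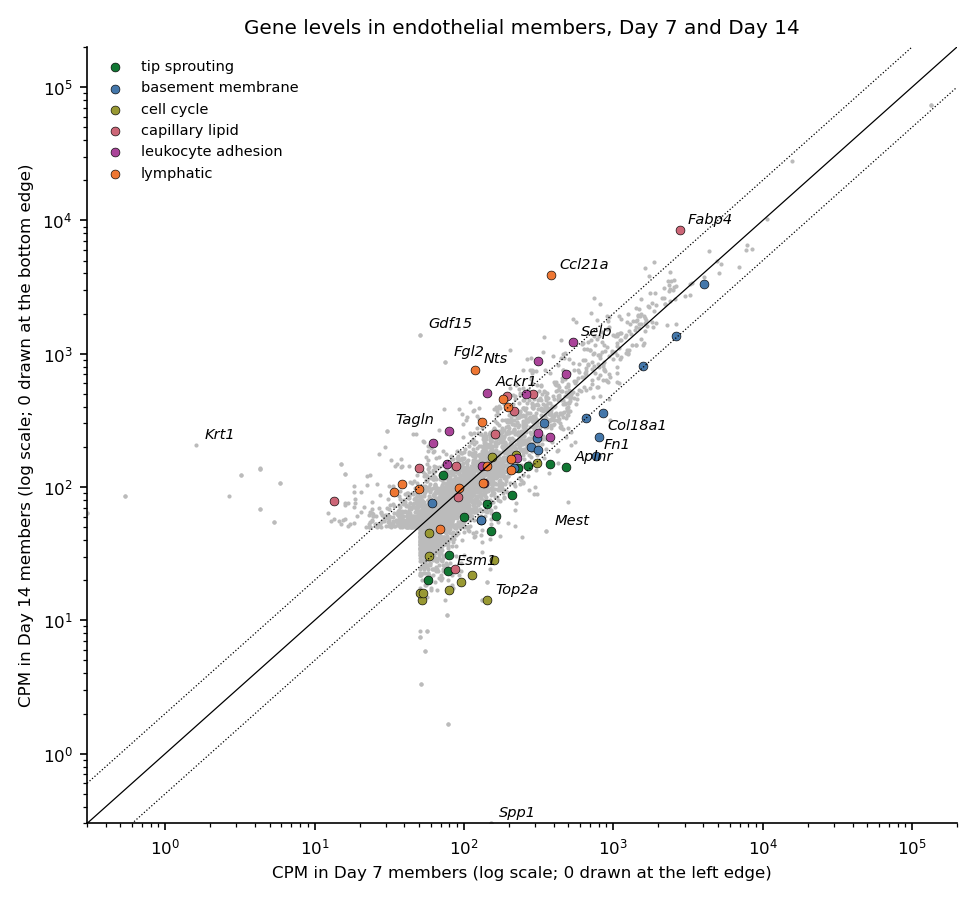
Level of each gene past the limit in endothelial members, in CPM of summed UMIs, on Day 7 (x axis, log scale) and Day 14 (y axis, log scale). Grey points are all genes, colored points are genes of 6 lists, the solid line marks equal levels and the dotted lines a 2-fold difference; Spp1, at 0 UMIs on Day 14, is drawn at the bottom edge, and Gdf15 and Ccl21a stand far above the upper dotted line.

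Sprouting genes formed the list with the most genes lower on Day 14 relative to its size among those of vessel biology. Of 18 genes of tip and sprouting cells, 14 passed the limit, of which 9 were at least 2-fold lower on Day 14 and 0 higher, and the median log2 ratio was -1.30. Esm1, which encodes the tip cell proteoglycan endocan, measured 78.3 CPM on Day 7 and 23.5 CPM on Day 14, from 31 of 226 and 8 of 158 members (log2 ratio -1.74, interval -2.38 to -1.15). Apelin (Apln), a secreted peptide of tip cells, measured 152 CPM on Day 7 and 46.9 CPM on Day 14 (log2 ratio -1.70, interval -2.14 to -1.28). Its receptor Aplnr, found on venous and sprouting cells, measured 485 CPM on Day 7 and 141 CPM on Day 14 (log2 ratio -1.78, interval -2.03 to -1.55), and was detected in 138 and 60 members. The Day 14 library was thus the lower one for both the ligand and the receptor. Angpt2, the context-dependent antagonist of the receptor Tie2, measured 210.2 CPM on Day 7 and 87.1 CPM on Day 14 (log2 ratio -1.27, interval -1.60 to -0.96), and its ratio in fibroblast-like barcodes was 1.07. Other genes of the list were lower outside the members too, with ratios in fibroblast-like barcodes of -2.99 for Apln and -1.54 for Cxcr4. Levels there were low, with 4.40 and 0.552 CPM of Apln and 14.3 and 4.93 CPM of Cxcr4 on Days 7 and 14. The median of the list in fibroblast-like barcodes was -0.54.

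Other genes of the list lay on the same side. Log2 ratios were -1.32 (-1.57 to -1.08) for the growth factor-binding protein gene Igfbp3, -1.37 (-1.93 to -0.84) for the chemokine receptor gene Cxcr4, -1.51 (-2.22 to -0.86) for adrenomedullin (Adm) and -1.43 (-1.82 to -1.06) for Trp53i11. Nid2, the basement membrane linker nidogen-2, was at -1.19 (-1.60 to -0.80). The potassium channel subunit gene Kcne3, under the limit, held 30 UMIs on Day 7 and 0 on Day 14, which makes it at least 6.40-fold lower when the 0 is set to a floor of 3 counts in the library. Pdgfb, the ligand by which sprouts recruit pericytes, was lower by less than 2-fold (log2 ratio -0.89, interval -1.15 to -0.64). The exception was Dll4, the Notch ligand of tip and arterial cells, with 72.9 CPM on Day 7 and 124 CPM on Day 14 (log2 ratio 0.77, interval 0.42 to 1.11). Among Prox1-negative members alone, 9 genes of the list were again at least 2-fold lower on Day 14 and 0 higher, with a median of -1.12.

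The receptors for VEGF and the angiopoietins lay closer to 0. Of 16 genes of VEGF and angiopoietin signaling 11 passed the limit, 0 were at least 2-fold higher on Day 14 and 1 lower, Angpt2, with a median of -0.20, and in Prox1-negative members 2 were lower. The rule genes Kdr and Flt1, given as a description, measured 503 and 425 CPM on Day 7 and 428 and 531 CPM on Day 14. Tek, which encodes Tie2, had a log2 ratio of 0.09 (-0.23 to 0.41), and Tie1, its partner receptor, -0.43 (-0.65 to -0.21). The coreceptor gene Nrp1 was at -0.20 (-0.47 to 0.07). Placental growth factor (Pgf), a Flt1 ligand, was lower by less than 2-fold over all members (log2 ratio -0.75, interval -1.17 to -0.35) and at -2.82 in Prox1-negative members. The Prox1-positive members of Day 14 held 61 of its 71 UMIs.

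Notch and arterial genes were divided. Of 19 genes 11 passed the limit, 2 were at least 2-fold higher on Day 14 and 1 lower, with a median of 0.45 over all members and -0.02 in Prox1-negative members. The receptor gene Notch4 measured 70.3 CPM on Day 7 and 20.1 CPM on Day 14 (log2 ratio -1.80, interval -2.50 to -1.17), while Notch1 had a log2 ratio of 0.45 (0.21 to 0.69). The chemokine gene Cxcl12, made by arterial endothelium, measured 220.4 CPM on Day 7 and 480.1 CPM on Day 14 (log2 ratio 1.12, interval 0.94 to 1.31). The other gene on the higher side was Stmn2, a microtubule regulator, at 1.33 over all members but 0.11 in Prox1-negative members. The arterial genes Gja4, Gja5, Hey1, Sema3g and Bmx did not reach the limit, with sums of 7 to 84 UMIs per library, and no order can be read from them.

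Some basement membrane genes were lower on Day 14 in members, and most ratios of the list were below 0. Of 15 genes 14 passed the limit, 5 were at least 2-fold lower on Day 14 and 0 higher, and 13 of the 14 ratios were below 0, with a median of -0.84. The type IV collagen genes Col4a1 and Col4a2 measured 2634 and 1569.9 CPM on Day 7 and 1358 and 810.2 CPM on Day 14, with log2 ratios of -0.96 (-1.04 to -0.87) and -0.95 (-1.06 to -0.85). In fibroblast-like barcodes the same ratios were 1.12 and 1.24. Pericyte-like barcodes were non-members with at least 3 of Rgs5, Notch3, Kcnj8, Abcc9, Cspg4 and Pdgfrb detected and a sum of at least 6 UMIs. Their ratios were -0.51 and -0.09. No limit on fibroblast UMIs was set for the pericyte-like group, which could share barcodes with the fibroblast-like one. It held 33260 CPM of Col1a1 on Day 7 and 35209 CPM on Day 14, against 40621 and 51571 CPM in fibroblast-like barcodes. A list of 9 fibroblast markers took a median of 2.88% of UMIs in pericyte-like barcodes on Day 7 and 1.21% on Day 14. The median of the basement membrane list was 0.08 in fibroblast-like and -0.34 in pericyte-like barcodes. Col18a1, whose C-terminal fragment is endostatin, measured 798 CPM on Day 7 and 239 CPM on Day 14 (log2 ratio -1.74, interval -1.93 to -1.56), and was found in 204 of 226 and 88 of 158 members. Hspg2, which encodes perlecan, measured 856 CPM on Day 7 and 357 CPM on Day 14 (log2 ratio -1.26, interval -1.42 to -1.11).

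Fibronectin (Fn1), the provisional matrix protein, had the lowest ratio of the list, with 761 CPM on Day 7 and 172 CPM on Day 14 (log2 ratio -2.15, interval -2.37 to -1.94), against -0.22 in fibroblast-like barcodes. It was found in 155 and 56 members, and in Prox1-positive members it measured 2102 CPM on Day 7 and 381 CPM on Day 14. Lamb2, a laminin chain of mature basement membranes, was the gene above 0, at 0.32 (-0.10 to 0.73). The matrix protein gene Sparc lay at -0.28 (-0.34 to -0.23). Among Prox1-negative members 4 genes of the list were at least 2-fold lower. Of 12 integrin genes, the receptors for these matrix proteins, 8 passed and 1 was at least 2-fold lower, Itgb3, the beta subunit of the vitronectin receptor, with 83.7 CPM on Day 7 and 18.4 CPM on Day 14 (log2 ratio -2.18, interval -2.90 to -1.53). In Prox1-negative members 3 integrin genes were. Itga5, the fibronectin receptor subunit, was at -0.98 (-1.30 to -0.67). Itgbl1, the integrin beta-like gene that the study centers on, had 6 UMIs in members on Day 7 and 6 on Day 14.

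**Figure D2:**
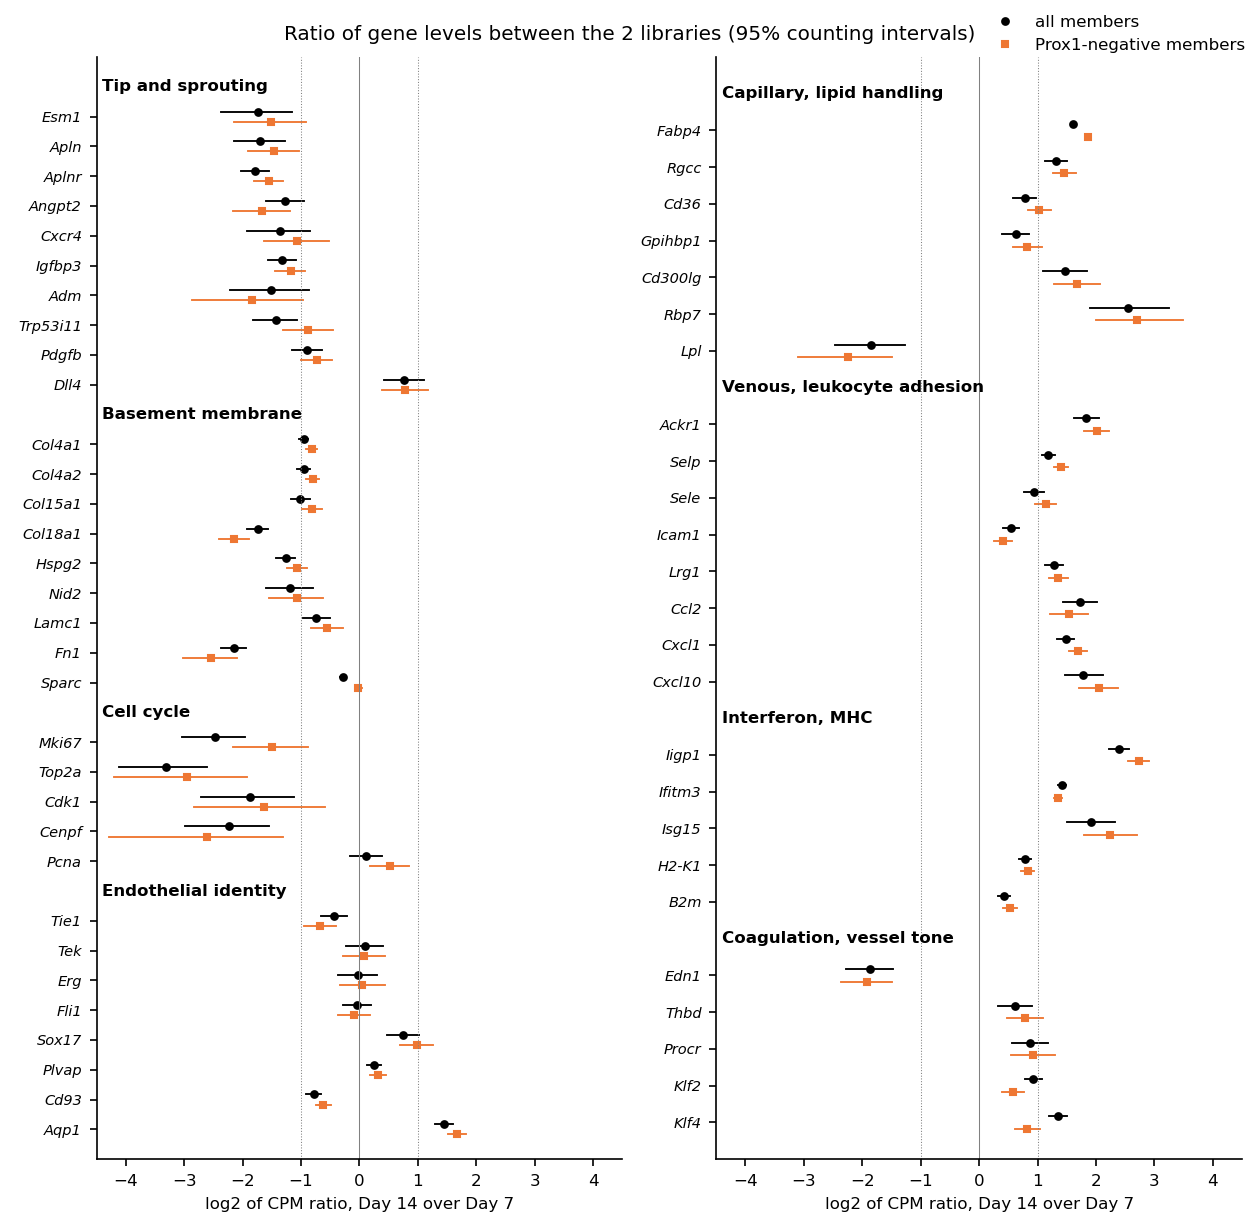
Log2 ratio of CPM, Day 14 over Day 7, for named genes by list, with 95% counting intervals, in all members (black circles) and in Prox1-negative members (orange squares); dotted lines mark 2-fold. Most sprouting, basement membrane and cell cycle genes lie left of 0 and most capillary, venous and interferon genes right of it, and for the genes plotted the circle and the square lie on the same side of 0 wherever both intervals exclude 0.

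Most cell cycle genes past the limit were lower on Day 14. Of 20 genes 13 passed the limit, 9 were at least 2-fold lower on Day 14 and 0 higher, with a median of -1.74. Top2a, the topoisomerase of dividing cells, measured 142 CPM on Day 7 and 14.2 CPM on Day 14 (log2 ratio -3.32, interval -4.12 to -2.61) and was found in 49 of 226 and 6 of 158 members. Mki67, which encodes the proliferation antigen Ki-67, measured 159 CPM on Day 7 and 28.5 CPM on Day 14 (log2 ratio -2.48, interval -3.04 to -1.96). Of the 34 Mki67 UMIs of Day 14, 29.4% came from 1 member. Pcna, a DNA polymerase clamp used also in repair, was at 0.12 (-0.15 to 0.38). Macrophage-like barcodes held at least 0.8% of Lyz2, C1qa and C1qb with under 1% of Dcn and Col1a2 and at most 1 rule gene. The medians of the list were -2.66 in fibroblast-like and -2.63 in pericyte-like barcodes and 0.54 in macrophage-like barcodes, so that a lower level was also measured outside the endothelial members. With each member thinned to 1000 UMIs, which left fewer genes past the limit, 2 cell cycle genes and 4 sprouting genes were lower. Without the Prox1-positive members, and with the limit applied again, 5 cell cycle genes were. Of the 13 genes that passed the limit over all members, 10 were at least 2-fold lower in Prox1-negative members, with a median of -1.63. On Day 7 the cycle genes were not evenly spread: the 46 Prox1-positive members held 162 of 296 Mki67 UMIs (359 CPM, against 94.8 CPM in Prox1-negative members) and 152 of 265 Top2a UMIs. On Day 14 Mki67 measured 19.0 CPM in Prox1-positive and 33.7 CPM in Prox1-negative members.

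Several capillary genes of lipid handling were higher on Day 14. Of 17 genes 10 passed the limit, 4 were at least 2-fold higher on Day 14 and 1 lower, with a median of 0.78. Fabp4, the fatty acid-binding protein of capillary endothelium, measured 2782 CPM on Day 7 and 8513 CPM on Day 14 (log2 ratio 1.61, interval 1.57 to 1.66). Its UMIs came from 192 of 226 and 116 of 158 members, so that the higher level was not matched by a larger share of members. Rgcc, a cell cycle regulator of capillary cells, measured 195 CPM on Day 7 and 485 CPM on Day 14 (log2 ratio 1.32, interval 1.13 to 1.51). Cd300lg, a surface molecule of capillaries and venules, measured 49.9 CPM on Day 7 and 138 CPM on Day 14 (log2 ratio 1.47, interval 1.10 to 1.85). The largest ratio was that of the retinol-binding protein gene Rbp7, with 25 UMIs on Day 7 and 94 on Day 14 (log2 ratio 2.55, interval 1.91 to 3.25). The fatty acid transporter Cd36 (0.78, 0.58 to 0.98) and Gpihbp1, which holds lipoprotein lipase on the capillary wall (0.62, 0.39 to 0.86), were higher by less than 2-fold. Lipoprotein lipase itself (Lpl) was lower, with 87.4 CPM on Day 7 and 24.3 CPM on Day 14 (log2 ratio -1.85, interval -2.47 to -1.27).

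Members differed widely in these genes. The capillary list took a median of 0.249% of a member's UMIs on Day 7 (quartiles 0.0969 to 0.554) and 0.796% on Day 14 (0.106 to 1.85), and its highest share in 1 member was 6.06% and 9.96%. The lower quartile thus differed little between the libraries while the upper one was several times higher on Day 14. In Prox1-negative members 6 of the genes that passed the limit were at least 2-fold higher on Day 14.

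Venous and leukocyte adhesion genes held several of the higher levels on Day 14. Of 15 venous genes 14 passed, 4 were at least 2-fold higher on Day 14 and 1 lower, Aplnr, with a median of 0.23, while in Prox1-negative members 5 were higher and 3 lower. The chemokine-binding receptor gene Ackr1, a marker of venules, measured 143 CPM on Day 7 and 510.3 CPM on Day 14 (log2 ratio 1.83, interval 1.62 to 2.05) and was found in 47 of 226 and 49 of 158 members. P-selectin (Selp), by which leukocytes first roll on venules, measured 537 CPM on Day 7 and 1222 CPM on Day 14 (log2 ratio 1.19, interval 1.07 to 1.30). The glycoprotein gene Lrg1, induced in inflamed vessels, measured 303 CPM on Day 7 and 736 CPM on Day 14 (log2 ratio 1.28, interval 1.13 to 1.44), while in fibroblast-like barcodes its ratio was -2.87. Nr2f2, the transcription factor of venous identity, did not share this order (log2 ratio -0.29, interval -0.51 to -0.07).

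Of 19 genes of leukocyte adhesion and recruitment 13 passed the limit, 5 were at least 2-fold higher on Day 14 and 0 lower, with a median of 0.94, and in Prox1-negative members 7 were. The 3 chemokine genes that passed were on the higher side: Ccl2, which attracts monocytes, measured 79.4 CPM on Day 7 and 263 CPM on Day 14 (log2 ratio 1.73, interval 1.44 to 2.02), and Cxcl1, which attracts neutrophils, 315 CPM on Day 7 and 878 CPM on Day 14 (log2 ratio 1.48, interval 1.33 to 1.63). Cxcl10, an interferon-induced T cell attractant, measured 61.7 CPM on Day 7 and 213 CPM on Day 14 (log2 ratio 1.79, interval 1.46 to 2.12). E-selectin (Sele) lay just under 2-fold (log2 ratio 0.94, interval 0.76 to 1.11), and the adhesion ligand genes Icam1 and Vcam1 were at 0.55 (0.41 to 0.69) and 0.13 (-0.16 to 0.41). Pericyte-like barcodes also had higher Ccl2 (1.86) and Cxcl10 (2.26) on Day 14, and fibroblast-like barcodes had 0.92 and 0.87.

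Secreted factors beyond chemokines were divided. Of 21 genes of endothelial signals to other cells 13 passed the limit, 4 were at least 2-fold higher on Day 14 and 2 lower, with a median of 0.42 over all members and 0.01 in Prox1-negative members. Interleukin 6 (Il6) measured 92.8 CPM on Day 7 and 384 CPM on Day 14 (log2 ratio 2.05, interval 1.79 to 2.31) and came from 57 of 226 and 76 of 158 members. The Prox1-positive members held 4 of its 458 UMIs on Day 14. The granulocyte factor Csf3 measured 126 CPM on Day 7 and 393 CPM on Day 14 (log2 ratio 1.65, interval 1.42 to 1.88), and the epidermal growth factor receptor ligand Hbegf 97.1 CPM on Day 7 and 350.2 CPM on Day 14 (log2 ratio 1.85, interval 1.60 to 2.11). The other gene on the higher side was Cxcl12. On the lower side stood Apln and the activin subunit gene Inhbb, with 66.5 CPM on Day 7 and 16.8 CPM on Day 14 (log2 ratio -1.99, interval -2.75 to -1.30). Among insulin-like growth factor-binding proteins, Igfbp7, an abundant vascular one, measured 1743 CPM on Day 7 and 3807 CPM on Day 14 (log2 ratio 1.13, interval 1.06 to 1.19), with similar ratios in fibroblast-like (1.26) and macrophage-like barcodes (1.28). Igfbp5 was at 2.10 over all members but -0.42 without the Prox1-positive ones.

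Interferon-induced and antigen presentation genes were higher on Day 14 for part of the list. Of 23 genes 18 passed, 5 were at least 2-fold higher on Day 14 and 0 lower, with a median of 0.64. The interferon-inducible GTPase gene Iigp1 measured 204 CPM on Day 7 and 1075 CPM on Day 14 (log2 ratio 2.40, interval 2.23 to 2.56), with members holding at least 1 UMI numbering 87 of 226 and 112 of 158. Ifitm3, which restricts viral entry, measured 1642 CPM on Day 7 and 4388 CPM on Day 14 (log2 ratio 1.42, interval 1.35 to 1.48), against 0.18 in fibroblast-like and 0.52 in pericyte-like barcodes. Isg15, a ubiquitin-like interferon product, measured 38.6 CPM on Day 7 and 145 CPM on Day 14 (log2 ratio 1.91, interval 1.50 to 2.33). Pericyte-like barcodes had ratios as high for Iigp1 (2.66) and Isg15 (1.94), and the median of the list there was 0.77. Class I histocompatibility genes were higher by less than 2-fold, with 0.79 for H2-K1 and 0.43 for B2m. The class II genes Cd74, H2-Aa, H2-Ab1 and H2-Eb1 had ratios of 0.35, 0.44, -0.05 and 0.20, and 1 member gave 39.3%, 44.7%, 41.9% and 42.7% of their Day 14 UMIs. Without the top member of each library, these 4 ratios were -0.08, -0.24, -0.60 and -0.34.

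Genes of clotting and vessel tone showed large ratios for a few genes. Of 17 genes 14 passed, 1 was at least 2-fold higher on Day 14 and 2 lower, with a median of -0.09. Endothelin-1 (Edn1), a vasoconstrictor, was on the lower side and measured 196 CPM on Day 7 and 53.6 CPM on Day 14 (log2 ratio -1.87, interval -2.27 to -1.48). It was detected in 97 of 226 members on Day 7 and 32 of 158 on Day 14, and in Prox1-negative members its ratio was -1.91. Klf4, a transcription factor induced by flow, measured 289 CPM on Day 7 and 736 CPM on Day 14 (log2 ratio 1.35, interval 1.20 to 1.51), and its relative Klf2 lay just under 2-fold (log2 ratio 0.93, interval 0.78 to 1.07). In Prox1-negative members Klf4 was at 0.82, and 0 genes of the list were 2-fold higher and 3 lower. The anticoagulant receptor genes Thbd (0.62, 0.33 to 0.90) and Procr (0.87, 0.57 to 1.18) were higher by less than 2-fold, and von Willebrand factor (Vwf) was at 0.33 (0.04 to 0.62).

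Junction and transforming growth factor beta genes lay close to the background. Of 20 junction and caveolar genes 13 passed, with 1 at least 2-fold higher on Day 14 and 0 lower and a median of 0.08, the exception being the caveolar coat gene Cavin2 (log2 ratio 1.20, interval 1.04 to 1.36), which was at 0.75 in Prox1-negative members. Of 18 genes of transforming growth factor beta and bone morphogenetic protein signaling 13 passed, with 1 higher and 0 lower and a median of 0.14, the exception being Ltbp4 (log2 ratio 1.22, interval 1.01 to 1.43), which holds latent ligand in the matrix. In Prox1-negative members Ltbp4 was at 0.94 and the median of that list was -0.13. Of 18 glycolysis and hypoxia genes 12 passed, with 0 higher and 1 lower, Adm, and a median of -0.33, against -0.88 in fibroblast-like barcodes. The glycolytic enzyme gene Pkm was at -0.84 (-1.03 to -0.66).

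Immediate early and heat shock genes, which dissociation of tissue can induce, were higher on Day 14 for part of the list. Of 16 genes all passed the limit, 7 were at least 2-fold higher and 0 lower, with a median of 0.92. The transcription factor gene Fos measured 912 CPM on Day 7 and 1904 CPM on Day 14 (log2 ratio 1.06, interval 0.97 to 1.15) and Atf3, a stress-induced factor, 285 CPM on Day 7 and 739.8 CPM on Day 14 (log2 ratio 1.37, interval 1.22 to 1.53). The heat shock genes Hspa1a and Hspa1b were not higher, at -0.22 and -0.24. The medians were 0.24 in fibroblast-like, 0.40 in macrophage-like and 0.19 in pericyte-like barcodes. In Prox1-negative members 3 genes were at least 2-fold higher and 1 lower. The count of 7 also came to 4 with the mean of CPM per barcode, to 4 without the limits on fibroblast and macrophage UMIs and to 3 with totals lacking Gm42418, mitochondrial and ribosomal protein genes. Cxcl1, Ccl2, Il6, Klf4 and Hbegf moved in the same direction as these genes, and the part of dissociation in either was not tested.

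Prox1-positive members, with at least 1 Prox1 UMI, numbered 46 of 226 on Day 7 (20.4%, exact interval 15.3 to 26.2) and 33 of 158 on Day 14 (20.9%, 14.8 to 28.1). In barcodes that should lack the gene the share was 0.745% and 1.07% for fibroblast-like and 0.0806% and 0.0427% for macrophage-like barcodes, at median depths of 10423 and 10418 and of 3181 and 3904 UMIs. Pericyte-like barcodes held 0.576% and 3.07%. After each member was thinned to 1000 UMIs, 22 of 226 (9.73%) and 22 of 158 (13.9%) kept a Prox1 UMI, and over 20 draws the counts ran from 15 to 27 and from 16 to 25, with the Day 14 share the higher one in 19 draws. Prox1-positive members of Day 7 held a median of 4 Prox1 UMIs and those of Day 14 a median of 8, with a highest value of 17 and 59.

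The Prox1-positive barcodes formed a lymphatic group by genes that Prox1 detection did not use. At least 3 of Lyve1, Flt4, Mmrn1, Ccl21a and Reln were detected in 40 of 46 Prox1-positive members on Day 7 and 29 of 33 on Day 14, against 1 of 180 and 2 of 125 Prox1-negative members. Ccl21a, the chemokine that draws dendritic cells into lymphatics, held 714 UMIs in Prox1-positive and 0 in Prox1-negative members on Day 7, and 4631 and 9 on Day 14. The hyaluronan receptor gene Lyve1 measured 786 CPM in Prox1-positive and 9.20 CPM in Prox1-negative members on Day 7, and 1111 and 5.18 CPM on Day 14. Flt4, the receptor for VEGF-C, measured 514 and 25.5 CPM on Day 7 and 367 and 22.0 CPM on Day 14. The blood vessel genes had the reverse order. Vwf held 2 UMIs in Prox1-positive and 223 in Prox1-negative members on Day 7, and 3 and 178 on Day 14, and Esm1 held 0 in Prox1-positive members on both days.

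Some rule genes were unequal between these groups. Cldn5 measured 1089.7 CPM in Prox1-positive and 322 CPM in Prox1-negative members on Day 7, and 1007 and 281 CPM on Day 14, whereas Flt1 measured 46.5 and 546 CPM and 61.6 and 788 CPM. Fabp4, outside the rule, had 458 and 3525 CPM on Day 7 and 716 and 12778 CPM on Day 14. Among Prox1-positive members of Day 14, all 46 Selp UMIs were in 1 member, and likewise all 22 Ackr1 UMIs in 1.

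**Figure D3:**
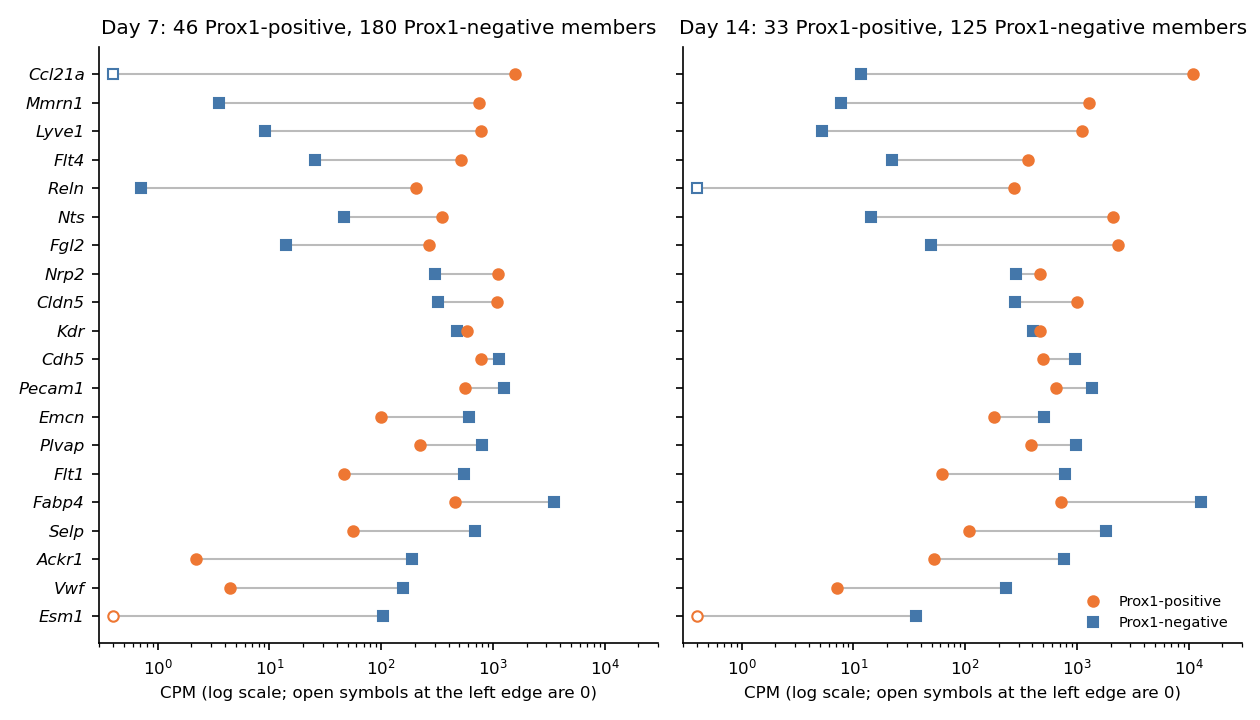
CPM (log scale) of lymphatic and blood vessel genes in Prox1-positive members (orange circles) and Prox1-negative members (blue squares) on Day 7 (left) and Day 14 (right), with open symbols at the left edge for 0 UMIs. Ccl21a, Mmrn1, Lyve1, Flt4 and Reln are far higher in Prox1-positive members, and Fabp4, Selp, Ackr1, Vwf and Esm1 in Prox1-negative ones, on both days.

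Prox1-positive members, at 20.4% and 20.9% of members before thinning, gave 24.2% of the members' UMIs on Day 7 and 35.4% on Day 14. Their median depth was 7499 and 9085 UMIs, against 6843.5 and 4997 in Prox1-negative members, and the deepest member of Day 14, with 5.74% of that day's member UMIs, was Prox1-positive. A sum of UMIs over all members therefore counts lymphatic genes more heavily on Day 14. Of 16 lymphatic genes 14 passed the limit, 7 were at least 2-fold higher on Day 14 over all members and 0 lower, with a median of 0.98, while within Prox1-positive members the median was 0.46. Among the lymphatic genes, Ccl21a had the largest ratio within Prox1-positive members, at 2.79, followed by the neuropeptide gene Nts at 2.61. Prox1 itself was at 0.66, Mmrn1 at 0.77 and Lyve1 at 0.50, and Flt4 (-0.48), Pdpn (-0.14) and Nrp2 (-1.23), a VEGF-C coreceptor, were below 0.

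Other genes were also unequal between these groups, of which Fgl2, Cp, Il7 and Cd9 were picked after their values were seen. Gdf15, a stress-induced cytokine, held 29 UMIs in 11 Prox1-positive members on Day 7 and 1586 UMIs in 27 on Day 14, against 66 and 73 UMIs in Prox1-negative members. Macrophage-like barcodes held 265 and 490.3 CPM of Gdf15, against 64.2 and 3758 CPM in Prox1-positive members. Of the 9 macrophage genes, the 4 past the limit had higher values in Prox1-positive members on Day 14, with 139.5 and 161 CPM of Lyz2, 66.4 and 137 of C1qa, 53.2 and 147 of C1qb and 33.2 and 114 of C1qc on Days 7 and 14. The others, Csf1r, Adgre1, Cd68, Fcgr1 and Ms4a7, held 4 to 13 UMIs each on Day 7 and 2 to 7 on Day 14, and Cd74 measured 22.1 and 576 CPM. On Day 14 the top Prox1-positive member of each gene gave 35 of 58 UMIs of C1qa, 38 of 62 of C1qb and 21 of 48 of C1qc. The part of macrophage transcripts in Gdf15 was not tested. Fgl2, a fibrinogen-like protein, held 120 UMIs in 32 Prox1-positive members on Day 7 and 989 in 30 on Day 14. Ceruloplasmin (Cp) was found in 10 of 46 and 26 of 33 Prox1-positive members, and Il7, the lymphocyte growth factor, in 6 of 46 and 20 of 33. Dtx1, a Notch regulator, held 8 UMIs on Day 7 and 82 on Day 14, of which Prox1-positive members gave 8 and 80. The tetraspanin gene Cd9 measured 321 and 343 CPM in Prox1-positive and Prox1-negative members on Day 7 and 1915 and 546 CPM on Day 14.

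Vessel subtypes were counted by gates of marker genes, with a member in a gate when at least 2 genes of the gate were detected after thinning to 1000 UMIs. The tip gate (Esm1, Apln, Angpt2, Pgf, Kcne3, Cxcr4, Igfbp3) held 25 of 226 members on Day 7 (11.1%, 7.29 to 15.9) and 3 of 158 on Day 14 (1.90%, 0.393 to 5.45). Over 20 draws the counts were 20 to 35 (median 29.5) and 3 to 11 (median 5.5), and the Day 14 share was lower in all 20. The log2 ratio of the shares was -2.54 with an interval of -4.91 to -0.83, and the Day 14 count of 3 behind it was the lowest of the 20 draws. Over the draws the ratio ran from -2.90 to -0.67, and without thinning it was -0.80. The share in fibroblast-like barcodes was 0.253% and 0.225%. The cycling gate (Mki67, Top2a, Cdk1, Ccnb1, Ccnb2, Ccna2, Birc5, Cenpf, Tpx2, Ube2c) held 23 members on Day 7 (10.2%) and 5 on Day 14 (3.16%), with a ratio of -1.69 (-3.44 to -0.26). Over the draws the counts were 18 to 28 and 0 to 5 (median 3), so that the Day 14 count behind this ratio was the highest of the 20. Pericyte-like barcodes were in the cycling gate in 10.1% and 1.62% of cases.

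The other gates, at 2 genes, had intervals that included 0. The venous gate (Ackr1, Selp, Sele, Vwf, Nr2f2, Vcam1, Lrg1) held 73 members (32.3%) on Day 7 and 67 (42.4%) on Day 14, and the capillary gate (Cd36, Fabp4, Gpihbp1, Rgcc, Car4, Btnl9, Cd300lg) 72 (31.9%) and 70 (44.3%). Their ratios were 0.39 (-0.11 to 0.89) and 0.48 (-0.02 to 0.97), and with at least 3 genes required the capillary ratio was 1.31 (0.54 to 2.12), an interval above 0. The arterial gate (Gja4, Gja5, Hey1, Efnb2, Sema3g, Bmx, Sox17, Stmn2) held 11 and 12 members, with a ratio of 0.64 (-0.67 to 1.96), and the lymphatic gate (Prox1, Lyve1, Flt4, Mmrn1, Ccl21a, Reln, Pdpn) 34 and 29, with 0.29 (-0.48 to 1.04). In each of these 4 gates the Day 14 share was the higher one in all 20 draws. The draws thin the same members again, so that their agreement covers thinning alone. Without thinning, the lymphatic share was lower on Day 14, with 23.0% on Day 7 and 21.5% on Day 14, while the other shares were higher. Gates were not exclusive. Before thinning, 109 members of Day 7 were in both the capillary gate and the venous gate, 69.9% of each, and on Day 14 91 members were, 79.1% of the capillary and 77.8% of the venous gate. Of 52 members in the lymphatic gate on Day 7, 32 (61.5%) were also in the cycling gate, which held 63, and on Day 14 this was 4 of 34 (11.8%).

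**Figure D4:**
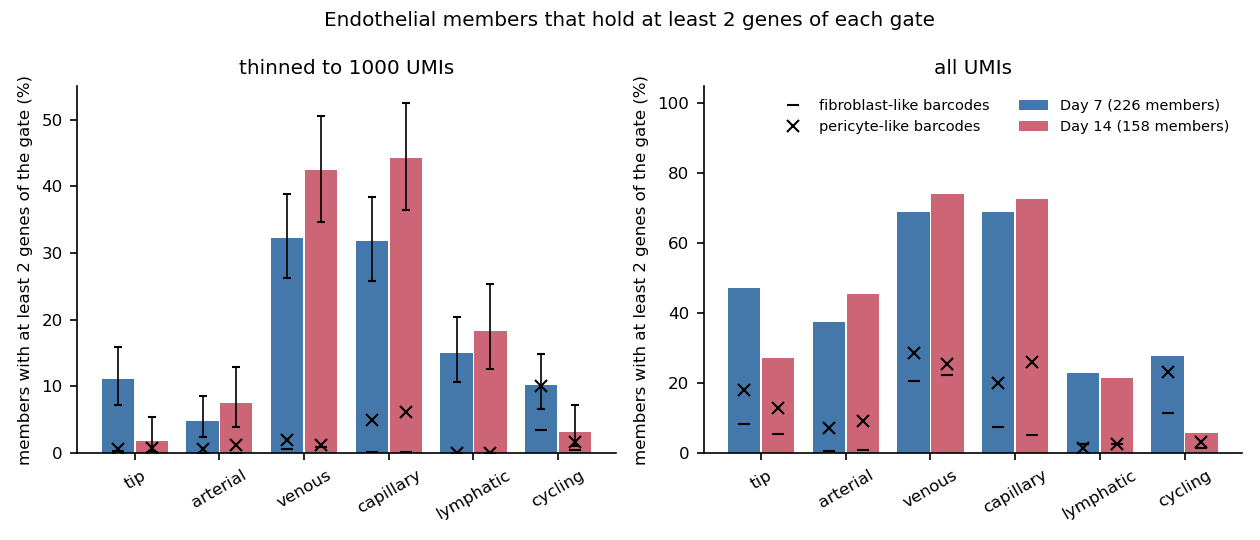
Share of endothelial members (%) with at least 2 genes of each gate on Day 7 (blue) and Day 14 (red), thinned to 1000 UMIs with exact 95% intervals (left) and with all UMIs (right); dashes and crosses give the same share in fibroblast-like and pericyte-like barcodes. The tip and cycling shares are lower on Day 14 in both panels, and after thinning the pericyte-like cycling share on Day 7 is as high as that of members.

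The genes with the largest ratios were partly those of other cell types. The 10 lowest ratios belonged to Spp1, Mmp12, Cenpe, Top2a, Ccl9, Cd276, Mest, Tnc, Pgm2l1 and Racgap1. Spp1, which encodes osteopontin and is abundant in wound macrophages, held 283 UMIs in 86 members on Day 7 and 0 on Day 14, at least 60.4-fold lower with the 0 set to 3 counts, and it was lower also in macrophage-like (-4.04) and fibroblast-like barcodes (-5.31). Mest, an imprinted growth gene, measured 353 CPM on Day 7 and 46.9 CPM on Day 14 in 147 and 34 members (log2 ratio -2.91, interval -3.33 to -2.52), whereas its ratio was 0.89 in fibroblast-like and 1.00 in pericyte-like barcodes. The immune checkpoint gene Cd276 was found in 116 of 226 and 13 of 158 members (log2 ratio -3.22, interval -4.02 to -2.51). Tenascin C (Tnc), a matrix protein of growing tissue, measured 142 CPM on Day 7 and 19.3 CPM on Day 14, and 202 of its 265 UMIs on Day 7 were in Prox1-positive members. Cenpe and Racgap1 act in chromosome movement and cytokinesis.

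The 10 highest ratios belonged to Stfa3, Ly6d, Krt1, Krtdap, Krt10, Krt14, Retnla, Gdf15, Lgals7 and Dtx1. Single members carried several of these: 1 member gave 98.7% of the Stfa3, 90.3% of the Krt14, 80.1% of the Krtdap and 92.1% of the Retnla UMIs of Day 14. Krt1, a keratin of differentiating epidermis, held 3 UMIs on Day 7 and 247 on Day 14, from 3 and 22 members, and its ratio was also above 0 in fibroblast-like (4.15) and macrophage-like barcodes (5.83). Prox1-positive members held 154 of the 164 Retnla UMIs of Day 14, while Gdf15 and Dtx1, also mainly theirs, were spread over 40 and 22 members. Tagln, an actin-binding protein chosen after its values were seen, measured 30.6 CPM on Day 7 and 266 CPM on Day 14 from 18 and 63 members. Its log2 ratio was 3.12 (interval 2.71 to 3.55), against 0.81 in pericyte-like and -1.71 in fibroblast-like barcodes. Prox1-positive members held 3 of its 317 UMIs on Day 14. The smooth muscle actin gene Acta2 went the other way, with 121 CPM on Day 7 and 46.1 CPM on Day 14 from 35 and 8 members. Its log2 ratio was -1.40 (interval -1.85 to -0.96), and 1 member gave 44.7% of its UMIs on Day 7 and 1 gave 65.5% on Day 14.

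Marker lists of other cell types were low in most members and differed between the libraries. For fibroblast and macrophage genes this follows in part from the rule, which limited Dcn and Col1a2 and also Lyz2, C1qa and C1qb. Their low shares are thus no test of purity. The macrophage list (9 genes) summed to 831 CPM on Day 7 and 338 CPM on Day 14, with shares per member from 0 to 1.11% and from 0 to 0.963%, and 50 of 226 and 93 of 158 members at 0. The keratinocyte list (8 genes) summed to 26.8 and 505 CPM, with highest shares of 0.278% and 3.04% and with 197 of 226 and 101 of 158 members at 0, and Krt6a was at 0 on both days. The pericyte list (9 genes) summed to 228 and 318 CPM, with highest shares of 1.31% and 0.554% and with 167 and 133 members at 0. Neutrophil genes S100a8 and S100a9 held 69 and 81 UMIs on Day 7 and 0 on Day 14, and the neutrophil list summed to 108 and 13.4 CPM. The fibroblast list (9 genes) summed to 3442 and 2759.9 CPM, from 0.0349% to 2.62% of a member's UMIs on Day 7 and from 0.0304% to 1.67% on Day 14. The erythroid and platelet list summed to 272 and 57.0 CPM, with 2 Day 7 members at 0.5% or more and a highest share of 5.63%. The T cell list summed to 60.6 and 65.4 CPM and the Schwann cell list to 3.75 and 2.51 CPM, with Cd3e, Sox10 and Cdh19 at 0. The part of these transcripts in the ratios of endothelial genes was not tested. An alternative chosen after seeing the data left out members with 0.5% or more of UMIs from these lists together, apart from the fibroblast list. It gave 235 genes at least 2-fold higher on Day 14 and 225 lower. On the fibroblast list 13 Day 7 and 24 Day 14 members held 0.5% or more. They were not left out on that ground.

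Set beside fibroblast-like barcodes of the same libraries, the endothelial members differed in several matrix genes. The collagen genes Col4a1, Col4a2, Col15a1 and Col18a1 had ratios of -0.96, -0.95, -1.01 and -1.74 in members and of 1.12, 1.24, 1.72 and 0.72 in fibroblast-like barcodes. In pericyte-like barcodes the 4 ratios were -0.51, -0.09, -0.63 and -0.62, on the same side of 0 as in members. Igfbp3 was at -1.32 in members, 1.01 in fibroblast-like and 1.89 in pericyte-like barcodes. Mki67, Top2a, Pkm and Gm42418 were lower on Day 14 in members, fibroblast-like and pericyte-like barcodes alike. Fos and Egr1 were at 1.06 and 1.08 in members and at 0.25 and -0.10 in fibroblast-like and 0.22 and -0.05 in pericyte-like barcodes, and Prox1-negative members had 0.72 and 0.90. The contrast was smaller for Atf3, at 1.37 in members, 0.85 in fibroblast-like and 0.85 in pericyte-like barcodes, and for Ier2, at 1.19, 0.70 and 0.70. These differences between groups come from 1 library per day and have no replicate check.

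**Figure D5:**
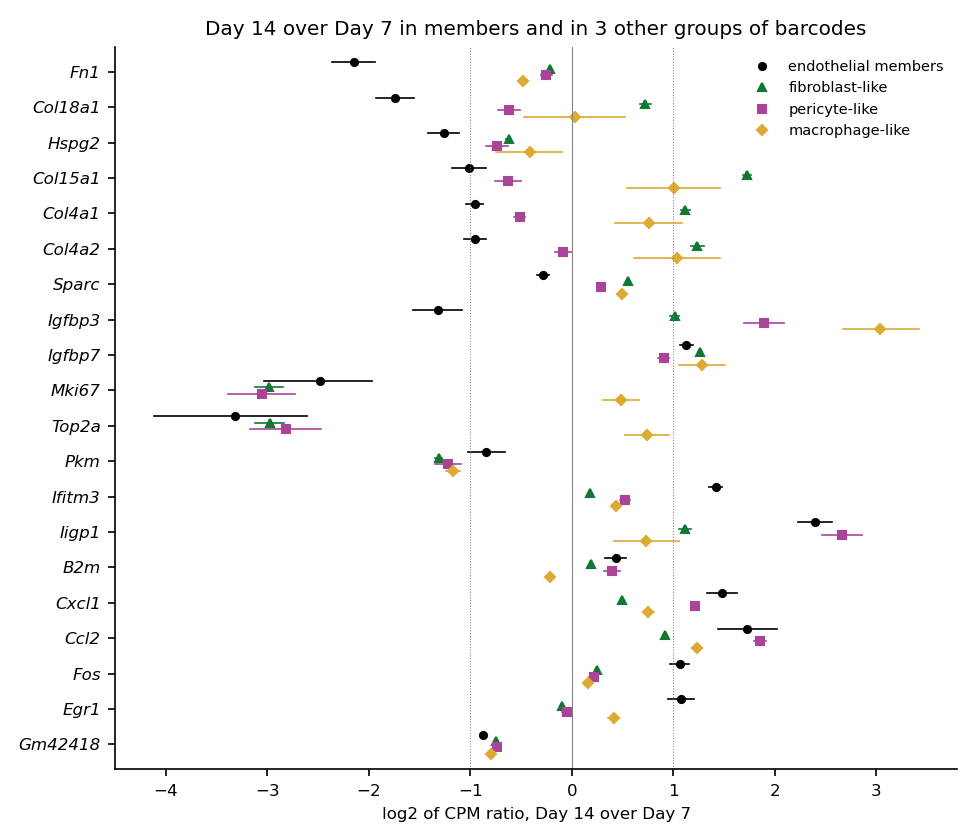
Log2 ratio of CPM, Day 14 over Day 7, of 20 genes in endothelial members (black), fibroblast-like (green), pericyte-like (purple) and macrophage-like barcodes (yellow), with 95% counting intervals; dotted lines mark 2-fold. Type IV collagen genes lie left of 0 in members and right of 0 in fibroblast-like barcodes, while Mki67 and Top2a lie left of 0 in all groups but macrophage-like barcodes.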

How the data were processed

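Cells of pooled, unsorted mouse wound tissue were profiled as 3 libraries, 1 each for Days 3, 7 and 14. The authors deposited raw UMI counts per gene and barcode, which the submitters' processing notes tie to Cell Ranger 6.0.0 and the mm10 genome. The annotation release is not given in the sources used here. No cell annotation was used. Each barcode is a cell of 1 library, and with 1 library per day no test, p-value or standard error was computed.

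Members, gene lists and comparisons were chosen with earlier results of these data known. UMIs were summed over members per library, divided by the sum over all 32285 gene IDs and given as CPM. Ratios carry exact conditional binomial intervals, shares exact Clopper-Pearson intervals and a count of 0 a floor of 3 counts. Genes entered counts at 50 CPM or more in 1 library and 30 UMIs over both, and a 2-fold ratio of CPM, with no test, counted as higher or lower. Subtype gates used members thinned to 1000 UMIs without replacement, repeated in 20 draws. The genes named were those of 27 fixed lists (within a list, those with the most UMIs and the largest ratios), the 10 highest and 10 lowest ratios and the 15 genes highest against other barcodes. Fgl2, Cp, Il7, Cd9 and Tagln were named after their values were seen. Doublets were scored per library against simulated doublets (scikit-learn 1.9.0), which called 9.17% of the scored barcodes on Day 7 and 6.64% on Day 14. Called members were kept and left out only as an alternative. Python 3.11.15, numpy 2.4.6, scipy 1.17.1 and matplotlib 3.10.9 were used, and the scripts were tested on simulated data. Counting intervals leave out variation between wounds, dissociations and libraries. Those of gene ratios treat the UMIs of 1 member as independent and so leave out variation between members as well. Some genes of the lists are counted but not reported here by name.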

Additional observations from a re-analysis of the deposited data

Results flagged for a closer look

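The Day 3 library, outside the comparison of Days 7 and 14, held 6 barcodes that met the same rule, of 3891 within the limits on UMIs and mitochondrial UMIs. This is 0.154% (exact interval 0.0566 to 0.335) and above the limit of 3 counts that a count of 0 would allow, which is why the Day 3 members are given here. They held 195356 UMIs, of which 116339 were in 1 barcode and 28692 in the next, so that sums over them mostly describe 1 droplet. The rule genes summed to 6 to 598 UMIs per barcode, with 239 UMIs of Pecam1, 180 of Cdh5 and 195 of Emcn. Sprouting and division genes were present, with 28 UMIs of Esm1 and 24 of Mki67, and Col4a1 held 457. The venule gene Ackr1 held 3. Of the 6, 1 was Prox1-positive. With 6 barcodes no level on Day 3 was set against the other days.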

How the results depend on the processing

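No paired analysis was possible because each day is 1 library and the labels give no replicate numbers. For the same reason no library was left out in turn. Limits on UMIs, mitochondrial UMIs and rule genes, halved limits on fibroblast and macrophage UMIs and scaling by the median of ratios reversed no ratio of at least 2-fold. Reversals of smaller ratios were not counted.

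Lymphatic members decided several values. Sign changes were counted only for named genes at least 2-fold apart over all members. Smaller ratios, such as those of Ccn1 (0.42 to -0.51) and Dusp1 (0.32 to -0.17), also changed sign in Prox1-negative members. Among the counted genes, ratios without Prox1-positive members changed sign for Clca3a1 (-0.18), Igfbp5 (-0.42), Lyve1 (-0.83), Nts (-1.69) and Sema3d (-0.13). With members holding 2 other lymphatic genes also left out, chosen after seeing the data, those of Clca3a1 (-0.27), Gdf15 (-0.27), Igfbp5 (-0.42), Lyve1 (-1.15), Nts (-1.62) and Stmn2 (-0.079) did. With the level limit applied again in both settings, 0 lymphatic, 7 capillary and 8 leukocyte adhesion genes were higher on Day 14 and 5 cell cycle genes lower, while 3 and 2 immediate early genes were higher. Of 93 genes called 2-fold, 17 fell under 2-fold in the first setting, and 20 of 92 in the second.

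Thinning each member to 1000 UMIs, which leaves fewer genes past the limit, gave 2 cell cycle and 4 sprouting genes lower and 4 lymphatic genes higher. The mean of CPM per barcode gave 3 lymphatic and 4 immediate early genes higher. Ratios of named genes also depended on how members were weighted. With thinning 145 of them left the interval given over all members and 114 stayed inside. With the mean of CPM per barcode 92 left it and 173 stayed. Of genes called 2-fold, 14 of 91 fell under 2-fold with thinning and 16 of 97 with the mean. A level limit of 20 CPM gave 382 genes higher on Day 14, 589 higher on Day 7 and 16 cell cycle genes lower, and 100 CPM gave 94 higher on Day 7 and 4 cell cycle genes lower. Totals without the 50 most abundant genes gave 373 genes higher on Day 7, and totals without Gm42418, mitochondrial and ribosomal protein genes, chosen after seeing the data, 403, with 3 immediate early genes higher on Day 14. The share of higher calls was 51.2% as reported and 40.3%, 36.3%, 39.3% and 62.5% with these totals in turn and with limits of 20 and 100 CPM. Without called doublets 8 interferon genes were higher. Without limits on fibroblast and macrophage UMIs 2 venous and 4 immediate early genes were. The tip gate ratio was -0.80 without thinning and -0.81 with 1 gene, and the capillary gate ratio 1.31 with 3 genes (0.54 to 2.12). The cause of these shifts was not tested. Depth limits arterial genes, integrins and Day 3.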
